A study of Mus musculus with 22 samples.

Results

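Mfn1, Mfn2, Opa1, Dnm1l, Fis1, Bnip3, Bnip3l, Pink1 and Fundc1 are 9 genes that govern the fusion, the fission and the autophagic removal of mitochondria. They were chosen by gene symbol: every probe of the array table whose annotated symbol was one of the 9 was taken. This gave 17 probes out of 38563, covering 8 of the 9 genes, while Pink1 was carried by no probe of the table and was not analysed here. The muscles came from male C57BL/6N mice aged 8 to 12 weeks, in which acute hindlimb ischemia followed surgical excision of the femoral artery. The sample titles call all 22 non-diabetic. On day 5 after surgery, 11 mice received a single intraperitoneal dose of 12 mg/kg of a locked nucleic acid (LNA) oligonucleotide against miR-210, called ANTI-210, and 11 mice received the same dose of a scrambled control oligonucleotide, called SCR. The gastrocnemius, a calf muscle, was taken on day 7, and all 22 muscles were therefore ischemic. The injection was systemic and the muscle was homogenised whole, so that neither the cell type reached by the oligonucleotide nor the cell type behind a signal was resolved. MiR-210 itself was not analysed here.

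Mitochondria continually join and divide. Mitofusins (Mfn1, Mfn2) tether and fuse the outer membranes and Opa1 fuses the inner membranes, whereas the dynamin-related GTPase Drp1, encoded by Dnm1l, constricts and divides the organelle after recruitment by outer membrane proteins. Damaged mitochondria are delivered to autophagosomes by mitophagy, either through the kinase Pink1 and the ubiquitin ligase Parkin or through receptors of the outer membrane (Bnip3, Bnip3l, also called Nix, and Fundc1) that bind LC3-family proteins directly. Skeletal muscle fibres are rich in mitochondria, and Bnip3 is a well known gene of the hypoxia response.

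The oligonucleotide acts on the mature miRNA, whose sequence is printed here because it defines the treatment. Its bases 2 to 8, the seed that pairs with target mRNAs, are in capitals (RefSeq, build GRCm38.p6, chr7:141221407-141221428, minus strand).
mmu-miR-210-3p: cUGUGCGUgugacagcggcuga

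The promoters of the 3 fusion genes are printed because Mfn1, Mfn2 and Opa1 varied together across the 22 mice. Each window runs from 250 bases before to 50 bases after the annotated start, 5′ to 3′ on the strand of the gene (RefSeq, GRCm38.p6). Mfn1 lies at chr3:32529232-32529531 on the plus strand, Mfn2 at chr4:147904860-147905159 on the minus strand (1 of its 3 windows) and Opa1 at chr16:29579084-29579383 on the plus strand. Capitals mark every match, on either strand, to ACGTG or GCGTG (the core bound by hypoxia-inducible factors), GCGCATGC (NRF1), CCGGAA (ETS factors and GABP) or AAGGTCA (estrogen-related receptors).
Mfn1: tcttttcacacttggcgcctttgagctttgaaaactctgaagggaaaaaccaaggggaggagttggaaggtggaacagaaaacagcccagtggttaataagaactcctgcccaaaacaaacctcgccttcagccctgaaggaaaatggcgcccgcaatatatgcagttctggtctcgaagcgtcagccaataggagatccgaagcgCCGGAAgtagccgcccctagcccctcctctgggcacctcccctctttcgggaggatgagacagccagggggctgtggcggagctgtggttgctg
Mfn2: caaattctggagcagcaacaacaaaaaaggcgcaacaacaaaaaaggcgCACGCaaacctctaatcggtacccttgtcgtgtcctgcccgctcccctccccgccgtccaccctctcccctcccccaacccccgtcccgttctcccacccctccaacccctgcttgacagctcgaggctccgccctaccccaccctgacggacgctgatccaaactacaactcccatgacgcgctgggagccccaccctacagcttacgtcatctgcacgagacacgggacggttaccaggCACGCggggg
Opa1: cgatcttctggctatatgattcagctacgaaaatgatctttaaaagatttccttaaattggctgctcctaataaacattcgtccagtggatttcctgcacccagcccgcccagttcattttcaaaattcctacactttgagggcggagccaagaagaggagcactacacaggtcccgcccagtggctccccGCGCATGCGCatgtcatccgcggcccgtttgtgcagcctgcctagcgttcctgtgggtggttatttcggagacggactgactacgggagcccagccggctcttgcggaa

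Each of the 3 fusion promoters carried a different motif. Mfn1 held 1 match to CCGGAA, found in 14.9% of all 32851 promoter windows of the table. Mfn2 held 2 matches to the hypoxia core, found in 43.8% of windows. Opa1 held 2 overlapping matches to GCGCATGC, read on opposite strands, and 2.7% of windows held that motif. Among the other genes, the Bnip3 window held 5 matches to the hypoxia core, and 1 of 2 Fis1 windows, both Dnm1l windows and the Pink1 window held 1 match each. CCGGAA was matched in both Fis1 windows, in 1 of 2 Dnm1l windows and in the Fundc1 window. AAGGTCA, present in 4.7% of windows, was matched in none of the 12 windows, which cover 8 of the 9 genes. The motifs were chosen after the promoters had been seen, and a match describes letters and not binding.

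The values were quantile-normalized log2 intensities between 4.35 and 15.4, with 1 array per mouse. Any 2 arrays correlated between 0.947 and 0.997, and 62.6% of all probes had a mean under 6, here called near the floor. Of the 17 probes, 11 had a mean of 6 or more, and the brightest probe of a gene stood for it. The mean of that probe was 6 or more for 7 of the 8 genes, the exception being Bnip3. For Opa1 that mean was only 6.27, with values from 5.33 to 7.03, so that some muscles lay under 6. Levels of different probes cannot be set against each other on this scale. Defining markers of mature fibres were bright in every muscle, as Ckm (muscle creatine kinase, 14.53 to 15.19) and Acta1 (skeletal actin, 14.87 to 15.18) show. Of the 23 measured genes of the macrophage and leukocyte list, 19 had a mean of 6 or more, for instance Lyz2 (10.29 to 13.89), whereas Ptprc (4.48 to 5.64), Itgam (4.53 to 5.43), Itgb2 (4.77 to 6.44) and Ccr2 (4.57 to 5.38) were near the floor. In whole muscle, fewer cells of a type and less RNA per cell cannot be told apart.

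The first question was whether blocking miR-210 changed the genes of mitochondrial fusion. Mfn1 had log2 intensities of 10.27 at the lowest, 11.55 at the median and 12.05 at the highest in ANTI-210 muscles, against 10.55, 11.71 and 11.97 in SCR muscles. The groups overlapped over nearly their whole range, and both held a few muscles far below the others. The difference was -0.08 (SE 0.23, 95% interval -0.55 to 0.39, limma p = 0.727), and a second bright probe gave -0.14. Mfn2 ran over 12.82, 13.74 and 14.06 in ANTI-210 muscles and over 12.54, 13.83 and 14.08 in SCR muscles, with a difference of -0.01 (SE 0.19, 95% interval -0.41 to 0.38, limma p = 0.944). The lowest muscle of all belonged to SCR and the next lowest values were shared by the groups. Opa1 ran over 5.33, 6.29 and 6.90 in ANTI-210 muscles and over 5.38, 6.50 and 7.03 in SCR muscles. Its difference was -0.16 (SE 0.21, 95% interval -0.59 to 0.27, limma p = 0.446), and 2 further probes near the floor gave -0.01 each.

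**Figure D1:**
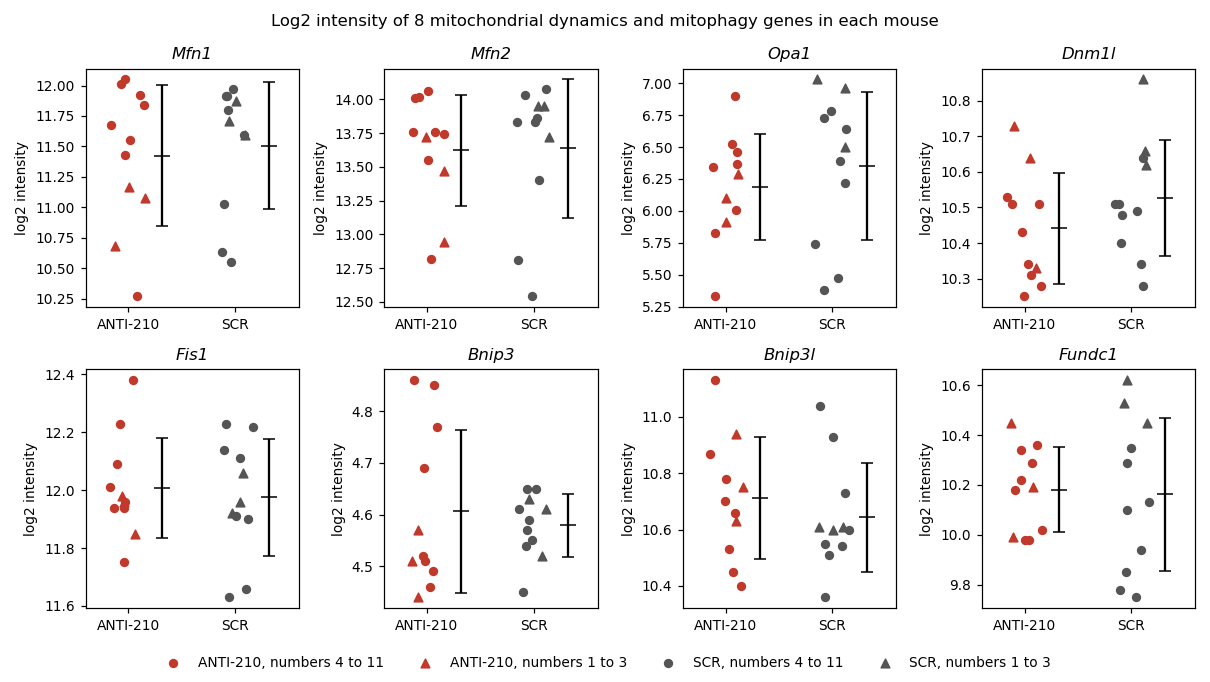
Log2 intensity of the brightest probe of 8 genes in each muscle, ANTI-210 in red and SCR in grey, with triangles for mice numbered 1 to 3, circles for mice numbered 4 to 11, and a bar for the mean ± SD (n = 11 each). The groups overlap in all 8 panels, and Mfn1, Mfn2 and Opa1 spread over 1.78, 1.54 and 1.70 log2 units across the 22 mice.

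The brightest probes of the fission genes varied less between muscles than those of the fusion genes. Dnm1l, the division GTPase, had log2 intensities of 10.25, 10.43 and 10.73 (lowest, median and highest) in ANTI-210 muscles, against 10.28, 10.51 and 10.86 in SCR muscles. Its difference of -0.08 (SE 0.07, 95% interval -0.22 to 0.05) had the smallest p among the 8 genes, 0.219 by limma. The groups overlapped, with 3 of 11 ANTI-210 muscles above the SCR median. Fis1, an outer membrane adaptor of fission, ran over 11.75, 11.96 and 12.38 in ANTI-210 muscles and over 11.63, 11.96 and 12.23 in SCR muscles. The medians were equal, and the difference was 0.03 (SE 0.08, 95% interval -0.13 to 0.19, limma p = 0.689). The further Dnm1l probes gave -0.04 and, near the floor, -0.17, and the second Fis1 probe gave -0.05.

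Among the mitophagy receptors, Bnip3l had log2 intensities of 10.40, 10.70 and 11.13 in ANTI-210 muscles, against 10.36, 10.60 and 11.04 in SCR muscles (difference 0.07, SE 0.08, 95% interval -0.11 to 0.25, limma p = 0.425). In ANTI-210, 8 of 11 muscles lay above the SCR median, yet the ranges overlapped almost fully. Fundc1, a receptor linked to hypoxia, ran over 9.98, 10.19 and 10.45 in ANTI-210 muscles and over 9.75, 10.13 and 10.62 in SCR muscles (difference 0.02, SE 0.10, 95% interval -0.19 to 0.23, limma p = 0.854). The SCR muscles spread further than the ANTI-210 muscles at both ends, and a second bright probe gave 0.03. The only Bnip3 probe was near the floor, with 4.44, 4.52 and 4.86 in ANTI-210 muscles and 4.45, 4.59 and 4.65 in SCR muscles (difference 0.03, SE 0.05, 95% interval -0.08 to 0.13, limma p = 0.595). Its SD was 0.16 in ANTI-210 and 0.06 in SCR, the highest values being those of ANTI-210 mice 6, 5 and 4 (4.86, 4.85 and 4.77). All 22 values lay within 0.42 log2 units of each other.

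None of the 17 probes passed an unadjusted p of 0.05, the level the study's methods use for genes, where 3.41% of all probes did, and none of the 8 genes did, where 3.47% of 18524 genes did. The Benjamini-Hochberg adjusted p was 1.0 for every one of the 17 probes. Over all processing settings, 0 of 271 fits of these genes passed, and the smallest p was 0.0898. The median difference of the 8 genes was 0.0027 and that of all genes was -0.0036. The 95% intervals of the brightest probes reached down to -0.59 for Opa1, -0.55 for Mfn1 and -0.41 for Mfn2 on the log2 scale. Changes of that size were not excluded. For Dnm1l, Fis1, Bnip3l and Fundc1 these intervals lay within 0.25 of 0. Dimmer probes reached -0.63 for Mfn1, 0.252 for Fundc1 and, near the floor, -0.46 for Dnm1l. The Bnip3 interval was also within 0.25 of 0, but its only probe was near the floor and sets no bound on Bnip3 RNA.

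**Figure D2:**
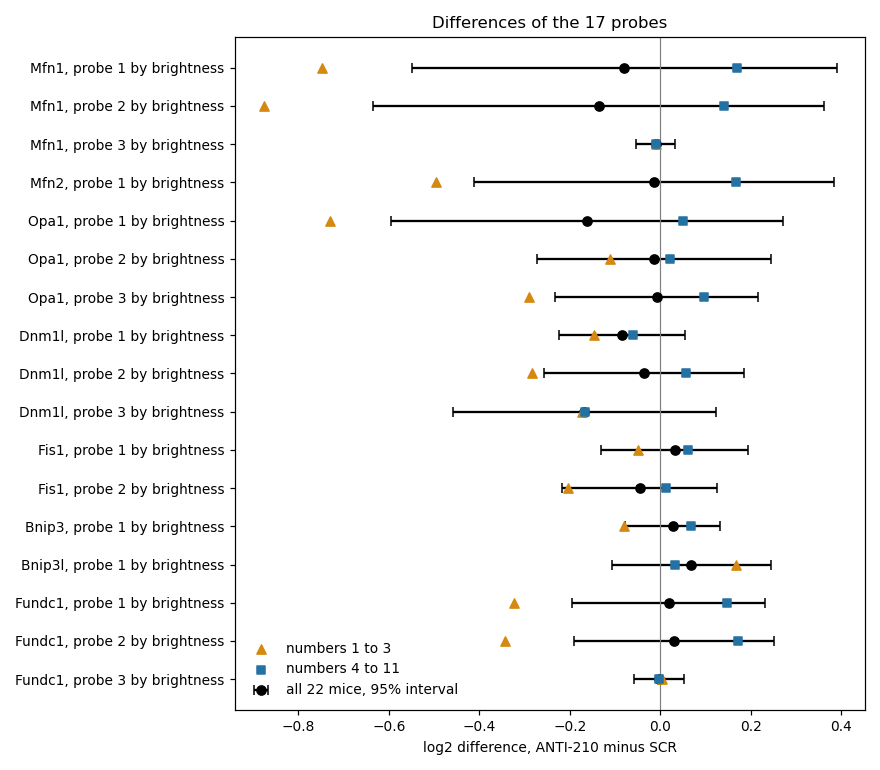
Differences of the 17 probes, in log2 units (ANTI-210 minus SCR), with black points and 95% intervals for all 22 mice, orange triangles for mice numbered 1 to 3 and blue squares for mice numbered 4 to 11. All 17 intervals include 0, and the triangles of the brightest probes lie left of their squares for every gene except Bnip3l.

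The wider machinery around these genes was read off the same fit in 4 lists. Of 21 measured partners of fusion and inner membrane shape, 1 was lower and 0 were higher in ANTI-210 at an unadjusted p of 0.05. Of 18 fission factors and adaptors and of 28 further mitophagy genes, 0 passed, with smallest p values of 0.0743 and 0.0826 in limma. Of 33 genes of autophagosome formation, 2 were lower and 0 higher. Together 3 of 100 genes were lower and 0 higher, against 2.01% lower and 1.45% higher among all genes, so that the counts were near the background. The median difference of the 100 genes was -0.04.

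The 3 genes that passed were Apool, Atg7 and Atg4d. Apool, a subunit of the complex that shapes cristae junctions, had log2 intensities of 5.93, 6.21 and 6.37 (lowest, median and highest) in ANTI-210 muscles, against 6.14, 6.32 and 6.59 in SCR muscles (difference -0.13, SE 0.05, limma p = 0.0191, adjusted p = 1.0). The groups overlapped, with 9 of 11 ANTI-210 muscles below the SCR median, and a dimmer probe gave 0.02. Atg7, the E1-like enzyme that activates the conjugation of LC3 proteins, ran over 6.66, 6.92 and 7.17 in ANTI-210 muscles and over 6.72, 7.13 and 7.39 in SCR muscles (difference -0.18, SE 0.07, limma p = 0.0228, adjusted p = 1.0). Here 10 of 11 ANTI-210 muscles lay below the SCR median. Atg4d, a protease that processes LC3 family proteins, ran over 6.55, 6.82 and 7.31 in ANTI-210 muscles and over 6.86, 6.99 and 7.14 in SCR muscles (difference -0.14, SE 0.06, limma p = 0.0370, adjusted p = 1.0). Its 3 other probes gave -0.26, -0.16 and -0.06, none past the threshold (limma p = 0.2483, 0.3175 and 0.5367). In mice numbered 1 to 3 the difference was -0.02 for Atg4d, -0.21 for Apool and -0.20 for Atg7. In mice numbered 4 to 11 it was -0.185, -0.10 and -0.18 in the same order. Atg4d missed the threshold without 10 of the 22 single muscles.

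Genes beside the mitochondrial machinery gave the setting of these values. Of 24 genes of mitochondrial content, such as respiratory chain subunits, 0 passed, and of 22 genes known to be induced by hypoxia, 0 passed. Of 14 genes of FoxO signalling and atrophy, 0 passed. Of 28 mature fibre genes, 1 was higher in ANTI-210 and 0 were lower, and of 23 macrophage and leukocyte genes, 0 passed with a median difference of 0.32. Of 15 endothelial genes, 6 were higher and 0 lower, where 1.45% of all genes were higher. The 4 of them with the smallest p, Emcn, Cdh5, Ly6c1 and Robo4, had differences of 0.50 to 0.59 in mice numbered 1 to 3 and of 0.06 to 0.22 in mice numbered 4 to 11, with exact permutation p from 0.0803 to 0.374 in numbers 4 to 11. Of 7 adipocyte genes, 1 was lower and 0 higher. None passed of 17 genes of regenerating fibres and satellite cells, 14 of fibroblasts and progenitors, 5 of red blood cells and 6 of nerve and Schwann cells. The part of these cell types in the members' values was not tested. The macrophage and leukocyte score, a mean of centred log2 values, ran from -0.73 to 1.07 (median 0.29) in ANTI-210 muscles and from -1.26 to 1.19 (median -0.35) in SCR muscles.

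The labels number the mice of each group from 1 to 11, and mice numbered 1 to 3 stood apart from those numbered 4 to 11 at 893 of all probes (limma, adjusted p under 0.05), although the labels name no batch. Within numbers 1 to 3, Mfn1 ran from 10.68 to 11.17 in ANTI-210 muscles and from 11.59 to 11.87 in SCR muscles. Opa1 ran there from 5.91 to 6.29 in ANTI-210 muscles and from 6.50 to 7.03 in SCR muscles. Bnip3l ran in the other direction, from 10.63 to 10.94 in ANTI-210 muscles and from 10.60 to 10.61 in SCR muscles. In these mice the groups did not overlap for 6 of the 17 probes, 5 lower and 1 higher in ANTI-210, yet 33.1% of all probes did not overlap either. The exact permutation p for the 3 genes just named was 0.1 (two-sided), the smallest that 3 against 3 mice allow.

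Among the brightest probes, the difference had the opposite sign in the larger set for Mfn1, Mfn2, Opa1, Fundc1, Fis1 and Bnip3. It kept its sign for Dnm1l and Bnip3l. The Mfn1 difference was -0.75 in numbers 1 to 3 and 0.17 in numbers 4 to 11, that of Mfn2 was -0.50 and 0.17, and that of Opa1 was -0.73 and 0.05. Fundc1 gave -0.32 and 0.15, and its second bright probe -0.34 and 0.17. Dnm1l gave -0.15 and -0.06, Fis1 -0.05 and 0.06, and Bnip3l 0.17 and 0.03. In numbers 4 to 11, the smallest exact permutation p among the 17 probes was 0.159 (two-sided, 8 against 8 mice). The test of the difference between the sets passed an unadjusted p of 0.05 for the 2 bright Fundc1 probes among the 17 (limma p = 0.0161 and 0.0164, adjusted p = 0.442 for both), where 11.0% of all probes passed. For Mfn1, Opa1 and Mfn2 the same test gave p = 0.0738, 0.0921 and 0.134 in limma. The mature fibre score of numbers 1 to 3 was -0.27, -0.04 and 0.07 in ANTI-210 mice and 0.12, 0.18 and 0.22 in SCR mice, so it was lower in each ANTI-210 mouse there. The part of fibre content in the set values was not tested.

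Across all muscles, the members split by how they followed the amount of mature fibre RNA. The mature fibre score, the mean of the centred log2 values of 28 genes of the contractile apparatus and energy supply of fibres, was lowest in ANTI-210 mice 11 and 3 (-0.51 and -0.27) and in SCR mice 6 and 7 (-0.61 and -0.41). The same 4 mice had the highest macrophage and leukocyte scores, 1.07 and 1.04 in the ANTI-210 mice and 1.19 and 1.12 in the SCR mice. Several of the 28 fibre genes lay near the top of the scale, where differences are compressed. In these 4 mice, Mfn2 was 12.54 to 12.94, against 13.40 to 14.08 in the other 18, and Mfn1 was 10.27 to 10.68, against 11.03 to 12.05. Fis1 was 11.63 to 11.85 in the 4 mice, against 11.90 to 12.38 in the other 18. Bnip3l showed the opposite order, with 10.93 to 11.13 in the 4 mice, against 10.36 to 10.87 in the other 18. Opa1 overlapped, with 5.33 to 5.91 against 5.47 to 7.03, as did Dnm1l (10.31 to 10.40 against 10.25 to 10.86). Fundc1 (9.85 to 9.99 against 9.75 to 10.62) and Bnip3 (4.45 to 4.61 against 4.44 to 4.86) overlapped as well. The share of all genes that separate these 4 mice was not counted.

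**Figure D3:**
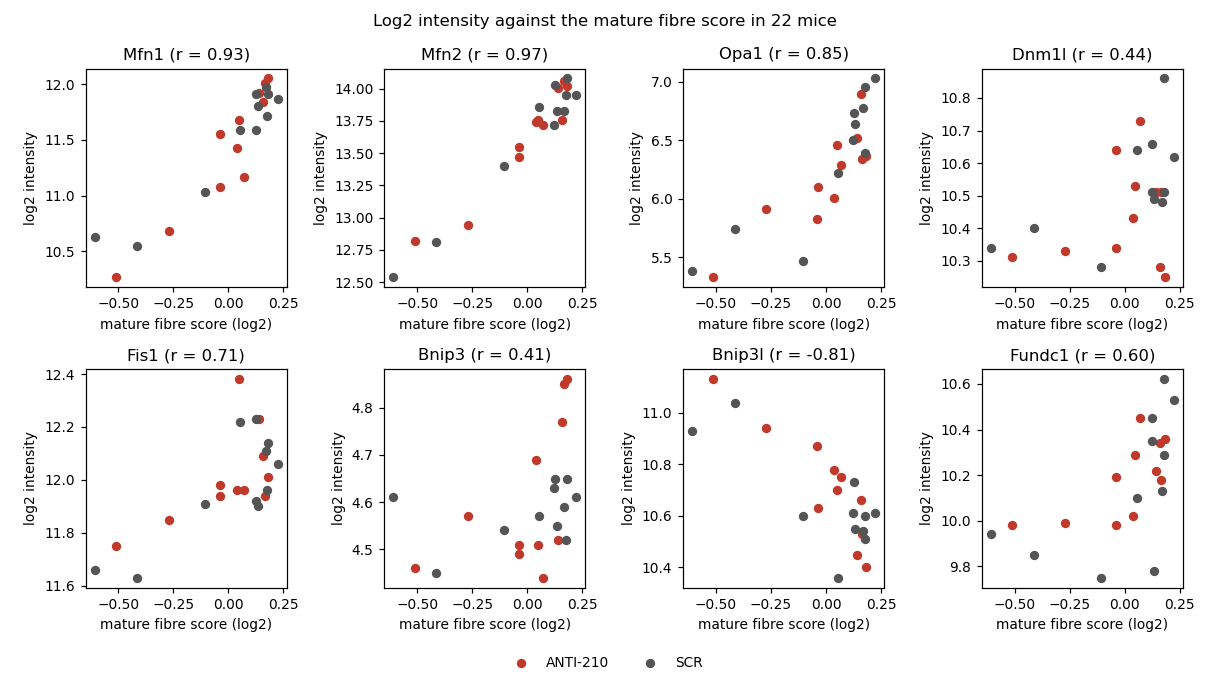
Log2 intensity of each gene against the mature fibre score (mean centred log2 value of 28 fibre genes) in 22 mice, ANTI-210 in red and SCR in grey, 1 point per mouse. Mfn1, Mfn2 and Opa1 climb along the score (r = 0.93, 0.97 and 0.85), Bnip3l falls (r = -0.81), and both colours lie along the same course.

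The relation to the fibre score was closest for the fusion genes. Pearson's r over 22 mice was 0.97 for Mfn2 (Spearman's rho 0.88), 0.93 for Mfn1 (rho 0.90) and 0.85 for Opa1 (rho 0.85), each with a permutation p of 1e-05, the smallest that 100000 resamples can give, and an adjusted p of 2.67e-05 over the 24 relations computed. Without the 4 low mice, r was 0.86 for Mfn2, 0.84 for Mfn1 and 0.86 for Opa1 in the other 18. For these genes the relation therefore did not rest on those mice. Within numbers 4 to 11, r was 0.98 for Mfn2, 0.96 for Mfn1 and 0.85 for Opa1.

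The fission genes followed the score less closely. Fis1 had r = 0.71 (rho 0.58, permutation p = 0.00014, adjusted p = 0.00024), yet r was 0.18 in the 18 mice without the 4 low ones, so that its relation rested on them. Dnm1l had r = 0.44 and rho 0.30 (permutation p = 0.0379 for r and 0.172 for rho, adjusted p = 0.0433 for r), and r was 0.33 without the 2 mice farthest from the median score (adjusted p = 0.159). With the mean of its 3 probes in place of the brightest, r was 0.62 and rho 0.68 (adjusted permutation p = 0.00272 for r). The relation of Dnm1l thus differed with the mice and probes used.

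The mitophagy receptors pointed in different directions. Bnip3l had r = -0.81 (rho -0.72, permutation p = 3e-05, adjusted p = 6e-05), and r was -0.40 (adjusted p = 0.132) in the 18 mice without the 4 low ones. Within numbers 4 to 11, which still include the low ANTI-210 mouse 11 and SCR mice 6 and 7, its r was -0.81. Fundc1 had r = 0.60 (rho 0.69, permutation p = 0.00262, adjusted p = 0.00393) and kept r = 0.60 in those 18 mice. Bnip3, near the floor, had r = 0.41 (rho 0.51, permutation p = 0.0558, adjusted p = 0.0582).

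With the macrophage and leukocyte score the signs were turned round. Over the 22 mice, r was -0.92 for Mfn1 and for Mfn2, -0.80 for Opa1, -0.76 for Fis1 and -0.58 for Fundc1, and 0.79 for Bnip3l (adjusted permutation p between 2.67e-05 and 0.00624 over the same 24 relations). For Dnm1l it was -0.38 (adjusted p = 0.081). Without the 4 low mice, r was -0.84 for Mfn1, -0.89 for Mfn2 and -0.64 for Opa1. It was then -0.51 for Fis1, -0.40 for Fundc1 and 0.51 for Bnip3l. These last relations no longer passed (adjusted permutation p = 0.0655, 0.132 and 0.0655). With the score of mitochondrial content, r was 0.95 for Mfn2, 0.95 for Mfn1, 0.86 for Opa1 and -0.80 for Bnip3l. Without the 4 low mice it was 0.78, 0.84, 0.77 and -0.37 in that order. Of these, Bnip3l no longer passed (adjusted permutation p = 0.171). The same 4 mice were lowest in the mitochondrial score, with -0.78 and -0.40 in ANTI-210 mice 11 and 3 and -0.77 and -0.60 in SCR mice 6 and 7. The separate parts of fibre, mitochondrial and macrophage RNA in the members' values were not tested.

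Relations with r of 0.6 or more, or of -0.6 or less, were common in these muscles. Among 8828 genes with a mean of 6 or more, 31.2% had r of 0.6 or more with the mature fibre score and 33.0% had r of -0.6 or less. On this ranking of r, Mfn2 lay at percentile 99.5, Mfn1 at 93.9, Opa1 at 85.5, Fis1 at 74.6, Fundc1 at 69.1, Dnm1l at 62.9 and Bnip3l at 19.8. Of 87 genes of the 4 wider lists with a mean of 6 or more, 44 had r of 0.6 or more and 10 had r of -0.6 or less, with a median r of 0.62. The median over all 8828 genes was -0.02.

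Of 15 genes of the fission list with a mean of 6 or more, 10 had r of 0.6 or more and 3 had r of -0.6 or less. Gdap1 (r = 0.98), Mtfp1 (r = 0.97), Mff (r = 0.96) and Mief2 (r = 0.95), of which Mff and Mief2 recruit Drp1 to mitochondria, followed the fibre score, whereas the actin regulators Inf2 (r = -0.95) and Spire1 (r = -0.84) and the outer membrane protein gene Mtch1 (r = -0.87) ran against it. In the mitophagy list, Pptc7, a mitochondrial phosphatase (r = 0.98), and Fundc2 (r = 0.95) followed the score, and the protease gene Htra2 (r = -0.83) and the kinase gene Tbk1 (r = -0.76) ran against it. In the autophagosome list, Ulk2 (r = 0.94) and Atg9a (r = 0.93), which act at the start of autophagy, followed the score, and Gabarap, an LC3 family member (r = -0.86), and the lysosomal membrane gene Lamp2 (r = -0.81) ran against it. These genes were chosen after their values had been seen, all r are over the same 22 arrays, and they are given as a description.

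Pairs of members showed the same division. Of 28 pairs, 17 had an adjusted permutation p under 0.05 over the 28. The same share over pairs of all genes was not counted. With the mature fibre score, 31.2% of 8828 genes had r of 0.6 or more and 33.0% had r of -0.6 or less. The count is therefore not shown to be particular to these members. The closest positive relations were Mfn1 with Mfn2 (r = 0.94, rho 0.92), Mfn1 with Opa1 (r = 0.82, rho 0.75) and Mfn2 with Opa1 (r = 0.80, rho 0.70), with an adjusted p of 0.000112 for each r. Bnip3l ran against Mfn2 (r = -0.82, rho -0.75) and Mfn1 (r = -0.81, rho -0.75) with the same adjusted p. Fundc1 went with Opa1 (r = 0.72, rho 0.70, adjusted permutation p = 0.000805) and with Dnm1l (r = 0.61, rho 0.56, adjusted permutation p = 0.00716). Dnm1l and Fis1, the 2 fission genes, had r = 0.30 (rho 0.36, adjusted permutation p = 0.211).

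Fewer pairs passed without the muscles low in fibre RNA. Without the 4 low mice, 4 of 28 pairs passed, namely Mfn1 with Mfn2 (r = 0.85), Mfn1 with Opa1 (r = 0.67), Mfn2 with Opa1 (r = 0.63) and Opa1 with Fundc1 (r = 0.65). In the same 18 mice, Bnip3l had r = -0.47 with Mfn2 and -0.41 with Mfn1. Without the 2 mice farthest from the median of the first gene, 11 pairs passed. Within numbers 4 to 11, which still include the low ANTI-210 mouse 11 and SCR mice 6 and 7, 17 pairs passed. Within numbers 1 to 3, with 6 mice, 1 pair passed. With the mature fibre score removed from both genes by regression, 0 of 28 pairs passed, and Mfn2 with Opa1 had r = -0.30.

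**Figure D4:**
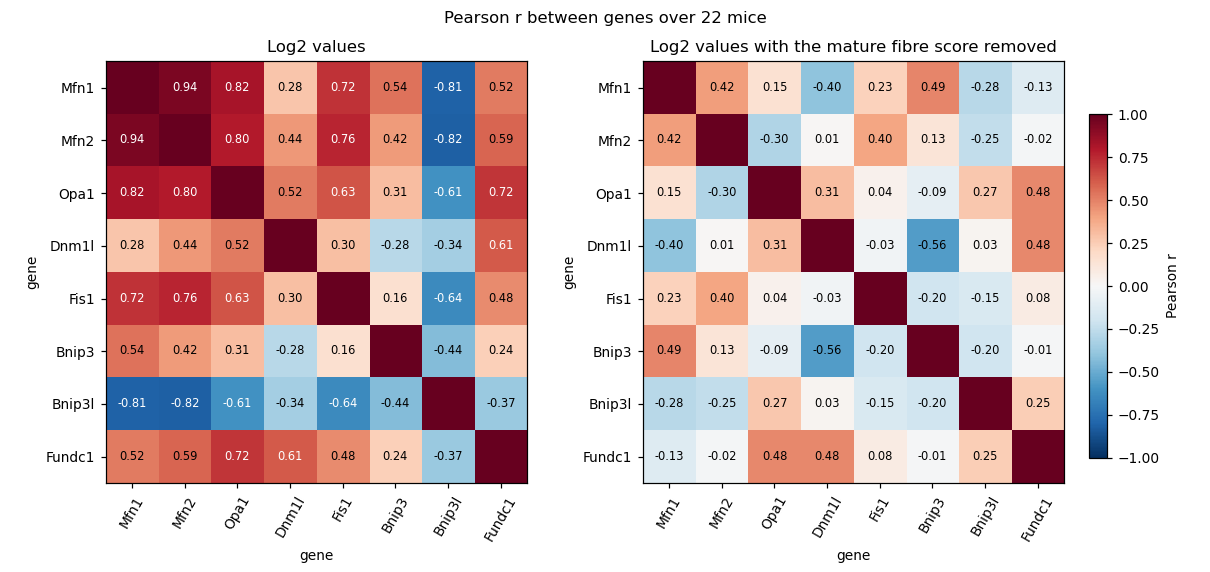
Pearson r between the 8 genes over 22 mice, from -1 in blue to 1 in red, for the log2 values on the left and for the values with the mature fibre score removed on the right. On the left, Mfn1, Mfn2 and Opa1 form a red block (r = 0.80 to 0.94) with blue cells for Bnip3l, and on the right none of the 28 pairs passed an adjusted permutation p of 0.05.

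The spread between mice of one group also differed among the genes. The pooled SD within groups was 0.55 for Mfn1, 0.46 for Mfn2 and 0.51 for Opa1, at percentiles 85.4, 82.0 and 80.3 of 1000 probes of like mean. It was 0.16 for Dnm1l, 0.19 for Fis1, 0.20 for Bnip3l and 0.25 for Fundc1, at percentiles 22.7, 30.4, 37.2 and 50.7. For Bnip3, near the floor, the SD was 0.12, at percentile 95.6, above the percentiles of the fusion genes. These are values of the brightest probes, and the dimmer Dnm1l probes had SDs of 0.26 and 0.34, against 0.30 and 0.26 for the dimmer Opa1 probes. The means of the numbered sets lay apart for Dnm1l and Fundc1 at an unadjusted p only. Such set differences were widespread, with 893 of all probes at an adjusted p under 0.05 in limma. The share of all probes at an unadjusted p was not counted. Dnm1l averaged 10.64 in numbers 1 to 3 and 10.43 in numbers 4 to 11 (limma p = 0.00192, adjusted p = 0.0667), and Fundc1 averaged 10.37 and 10.10 (limma p = 0.0136, adjusted p = 0.202).

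The genes whose pattern was most like that of a member, by Pearson r over the 22 mice among genes with a mean of 6 or more, were Ecsit (0.99), Vegfb (0.985) and Sgk3 (0.985) for Mfn1, and Fitm2 (0.98), Exoc6 (0.98) and Got2 (0.98) for Mfn2. For Opa1 they were Marchf6 (0.96), Paip2b (0.96) and Gpcpd1 (0.95). Dnm1l and Fis1 had looser companions, Chd9 (0.84), Akap7 (0.82) and Pomgnt1 (0.81) for Dnm1l and Ptch1 (0.89), Anapc13 (0.88) and Abtb1 (0.87) for Fis1. For Bnip3l they were Hsd17b11 (0.91), Tbc1d10a (0.91) and Snx10 (0.90), for Fundc1 Tmem9b (0.87), Ndufaf7 (0.87) and Glb1l2 (0.87), and for the dim Bnip3 probe Eef1e1 (0.85), Eed (0.82) and Rchy1 (0.82). Ecsit and Ndufaf7 act in the assembly of respiratory complex I, and Got2 is the mitochondrial aspartate aminotransferase. No p is given for these picks.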

How the data were processed

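Total RNA of 22 gastrocnemius muscles (1 mouse each, 200 ng) was amplified and hybridised to Illumina MouseWG-6 v2 BeadChips. The deposited values are log2 intensities. Per the methods, the authors exported bead summaries from GenomeStudio, applied quantile normalization and used beadarray to drop dim or poor probes. The deposited values still covered 38563 probes, 62.6% of them with a mean under 6. How far the filter was applied to them is not known. The base of the logarithm was taken as 2 from the range of the values. For versions and filter thresholds, the sources used here give nothing. The table held 0 value columns of other samples. After sorting, arrays differed by at most 0.07. There were 0 identical pairs of arrays.

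Probes were named from the platform annotation (32093 with 1 symbol, 16 with several, 6454 with none). Groups came from the labels. Differences, ANTI-210 minus SCR, were fitted to all 38563 probes with limma 3.58.1 (lmFit, eBayes) in R 4.3.3, two-sided, with Benjamini-Hochberg adjustment over all probes. Lists used the brightest probe per gene. Correlations (Python 3.11.15, SciPy 1.17.1) used 100000 permutations, and exact tests served within the numbered sets. The script was tested on simulated data. The number of arrays limits the precision.

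The text names all 9 genes, up to 4 genes past the threshold per wider list and the 3 most alike genes per member; exceptions are stated. For the marker lists, only values beside a result are named. Members and lists were chosen with earlier results of these data known. Because Pink1 had no probe, the families held 28 pairs and 24 score relations, fewer than planned for 9 genes. Same-numbered mice did not deviate together, so numbers were not used as pairs. Alternatives covered normalization, variance model, array weights, dim probes, probe summary, replicate block, t-test, numbered set, fibre covariate and leaving out each mouse. Removing the fibre score from pairs, leaving out the 4 mice with the lowest score and the values within numbers 1 to 3 were added after seeing the data.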

Additional observations from a re-analysis of the deposited data

Results flagged for a closer look

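The 2 bright probes of Fundc1 were picked out because ANTI-210 minus SCR differed between mice numbered 1 to 3 and mice numbered 4 to 11 by a test of that difference. For the first probe the difference between the sets was -0.47 on the log2 scale (SE 0.18, limma p = 0.0161, adjusted p = 0.442). In numbers 1 to 3, Fundc1 averaged 10.21 in ANTI-210 muscles and 10.53 in SCR muscles, and in numbers 4 to 11 it averaged 10.17 in ANTI-210 muscles and 10.02 in SCR muscles. For the second probe it was -0.51 (SE 0.20, limma p = 0.0164, adjusted p = 0.442). Neither holds after adjustment over all probes, and 11.0% of all probes passed the same unadjusted threshold. The labels name no batch for the numbers.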

How the results depend on the processing

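None of the 8 genes passed an unadjusted p of 0.05 in any of the 11 other settings or without any single mouse (0 to 0 of 8, all fits in limma except the methods' t-test). With the dim probes filtered out, Bnip3 had no value. The sign of differences near 0 turned. Mfn2 was 0.0054 with the mature fibre score as a covariate, Fis1 was -0.0004 with array weights and -0.0068 as the mean of its probes, and Fundc1 was -0.0245 with array weights. Leaving out single mice gave -0.176 to 0.036 for Mfn1, -0.123 to 0.067 for Mfn2, -0.0054 to 0.058 for Fis1 and -0.022 to 0.065 for Fundc1. They gave -0.259 to -0.0761 for Opa1 and 0.0274 to 0.109 for Bnip3l, with no change of sign. Array weights took Opa1 to -0.307 (limma p = 0.0906) and Mfn1 to -0.227. Of the 100 genes of the wider lists, 3 passed in the reported fit, 1 with trend and robust variances, 16 with array weights, 11 with the fibre covariate and 2 to 6 without single mice (6 without SCR mouse 6 or SCR mouse 7). Array weights also passed 3628 of all probes, against 1316 in the reported fit. Of all 18524 genes, 269 were higher and 373 lower in the reported fit, and 260 and 298 with trend and robust variances. With array weights 984 were higher and 936 lower, and with the fibre covariate 677 and 676. Without SCR mouse 6 they were 364 and 509, and without SCR mouse 7 they were 337 and 476. The counts of the wider lists thus rose along with those of all genes. Apool missed with trend and robust variances, with array weights and as the mean of its probes, and Atg4d in 5 of 11 settings, whereas Atg7 passed in all 11 and without any single mouse. The causes were not tested.

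Of the 24 score relations, 22 passed over all mice, 13 within ANTI-210, 13 within numbers 1 to 3 and 10 without the 4 mice lowest in fibre score. The share of all genes passing the same tests was not counted, so these counts are not shown to be particular to the members. Of the 28 pairs, 17 passed over all mice, 7 within ANTI-210, 11 within SCR, 11 without the 2 farthest mice, 1 within numbers 1 to 3, 4 without the 4 low mice and 0 with the fibre score removed. With it removed, r turned to -0.129 for Fundc1 with Mfn1, -0.297 for Opa1 with Mfn2, -0.017 for Fundc1 with Mfn2 and 0.268 for Bnip3l with Opa1. Fewer mice also lower the counts within subsets.

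Only 4 of the 11 same-numbered pairs of mice had correlated deviations over 0.1 (range -0.664 to 0.641), and 1 of 11 ANTI-210 mice correlated best with its own number. With the replicate number as a block, 0 of 8 genes and 3 of 100 wider genes passed, and 1305 of all probes did. The block ended the call of Atg4d (limma p = 0.066), and 1 gene of the mitophagy list passed that had not passed before. Probes near the floor, Bnip3 and the dimmer ones of Mfn1, Opa1, Dnm1l and Fundc1, limit what can be seen. The brightest Opa1 probe, with a mean of 6.27 and some values under 6, adds to this limit.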
